A study of Mus musculus with 6 samples.

Results

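The Schlafen genes are a family of growth-regulatory and interferon-inducible genes that lie side by side on mouse chromosome 11. All probe sets that the array annotation assigns to exactly 1 of 7 symbols (Slfn1, Slfn2, Slfn3, Slfn4, Slfn5, Slfn8 and Slfn9) were taken, which gave 11 of the 45101 probe sets on the array. A further probe set that the annotation assigns to both Slfn3 and Slfn4 is not a member and is given beside them. The family was selected on the differences between genotypes seen earlier in these same arrays, so the differences between genotypes of its members are given as a description, with no p-value. The model over all probe sets includes the members. The count of members it called is printed beside the count over all probe sets, as a description that supports nothing.

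The cells were 5C.C7 T cells, whose transgenic antigen receptor recognises moth cytochrome c (MCC). Donor mice lacked RAG2 and carried the CD45.1 allele, and were either wild type for CTLA-4 or CTLA-4-/- (CTLA-4 KO). CTLA-4 is an inhibitory receptor of activated T cells. RAG2-/-, CD45.1 and the transgenic receptor were shared by both groups, and so were transfer into B10.A recipients and activation there by MCC peptide given with LPS. The T cells were sorted after 4 days, by a marker the labels do not name, and 2 µg of RNA was used per array, with 3 arrays per genotype. The titles number them as biological replicates, but whether each came from separate animals, and the age of the mice, are not stated. The spread between arrays may thus be partly technical, though sex-linked transcripts, given below, set replicate 2 apart.

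Schlafen proteins take their name from the German word for sleep, after the growth arrest seen when the first members were expressed in thymocytes. The short members Slfn1 and Slfn2 hold little more than the shared core, Slfn3 and Slfn4 carry an additional middle domain, and the long members Slfn5, Slfn8 and Slfn9 add a helicase-like region at the C-terminal end. Slfn2 is needed for T cell quiescence and protects transfer RNAs from cleavage, and several members are induced by type I interferon.

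The long members described here, Slfn5, Slfn8 and Slfn9, share a feature in their promoters that the choice of the family did not use. Long Schlafen genes outside this set are not covered by that statement. The core of the interferon-stimulated response element, searched as GAAANNGAAA or its reverse complement TTTCNNTTTC, was present in RefSeq promoter windows (GRCm38.p6, 250 bases before to 50 after the start) of Slfn5, Slfn8 and Slfn9 and not in those of Slfn1, Slfn2, Slfn3 and Slfn4. Of all 32851 windows of that length, 3.44% held it. The stretches below show where it lies, with the core in capitals, each 5′ to 3′ on the strand of its gene. They end before the annotated start, and the Slfn8 and Slfn9 pair is shown to let the likeness of these neighbouring genes be read base by base.
Slfn5: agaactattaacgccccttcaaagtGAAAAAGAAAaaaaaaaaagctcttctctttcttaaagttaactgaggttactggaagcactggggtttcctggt
Slfn8: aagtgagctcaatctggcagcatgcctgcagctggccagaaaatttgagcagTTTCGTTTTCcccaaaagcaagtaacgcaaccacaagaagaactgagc
Slfn9: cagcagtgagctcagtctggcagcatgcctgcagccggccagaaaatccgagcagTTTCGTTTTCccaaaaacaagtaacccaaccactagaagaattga
These lie at chr11:82951922-82952021 (plus strand), chr11:83020811-83020910 (minus strand) and chr11:82991831-82991930 (minus strand). The core starts 155, 48 and 45 bases before the annotated start, respectively. In Slfn8 it lies 136 bases before another annotated start further downstream. Over the whole window, Slfn8 and Slfn9 had 80.8% identical columns in a global alignment, whereas the other 20 pairs of members had 46.5% to 53.0%. The interferon gamma-activated site, searched as TTCNNNGAA, and a forkhead site, searched as TGTTTAC on both strands, were found in none of the members' windows, and in 8.3% and 3.65% of all windows. A match is a description of these letters only.

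Median intensities were 68.0, 69.5 and 75.2 on wild-type arrays 1, 2 and 3 and 62.1, 63.7 and 71.5 on CTLA-4 KO arrays 1, 2 and 3. At each replicate number CTLA-4 KO was thus the lower. The check of the knockout held, as Ctla4 had intensities of 4587 to 5332 with the gene intact and 784 to 812 without it. The arrays of replicate 2 in both genotypes had high Xist (12599 and 14608) and the others at most 107. Eif2s3y ran the other way, at 71.6 and 95.1 on these arrays and 5064 to 5698 on the others. By these sex-linked transcripts, replicate 2 came from other animals than replicates 1 and 3. Whether replicates 1 and 3 came from separate animals cannot be read from them. The ratio of 5′ to 3′ Actb signal, which reflects RNA integrity, was 0.41 to 0.584 for wild type against 0.544 to 0.691 for CTLA-4 KO. The same ratio for Gapdh was lower in both, at 0.096 to 0.25 for wild type against 0.109 to 0.205 for CTLA-4 KO. All 11 T cell markers on the array were above the dimness floor. Their summed intensity was 80334 to 89616 per wild-type array and 82645 to 83797 per CTLA-4 KO array. Of 44 markers of CD8, B, myeloid, dendritic and NK cells, 36 had a mean intensity under 100, and the brightest of the rest was the B cell marker Ighm, at 9607 ± 1371 and 10709 ± 218 (SD, n = 3 arrays), while 7 of the 9 B cell markers on the array were under 100. None of the 44 passed the limma threshold, and 2 had an unadjusted p under 0.05.

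Intensity is the deposited signal of a probe set on a linear scale, so it is compared between arrays and not between probe sets. Differences subtract wild type from CTLA-4 KO on the scale log2(intensity + 16), with the standard error (SE) of a linear model fitted with limma to all probe sets whose mean reached a floor of 35.4. Of the 11 Schlafen probe sets, 10 reached that floor, and each of the 7 genes had at least 1 of them. By that fit 1 of the 10, Slfn8, passed an adjusted p of 0.05, and it was lower in CTLA-4 KO. Of all 27022 probe sets tested, 1.25% passed, 0.47% in that direction and 0.785% as higher. With the replicate number as a block, the same member passed, where 4.8% of all probe sets passed as lower. The count was 0 without wild-type array 2, without CTLA-4 KO array 2 and in further settings given in the closing section. Because this contrast was known when the family was chosen, nothing is read from that count.

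**Figure D1:**
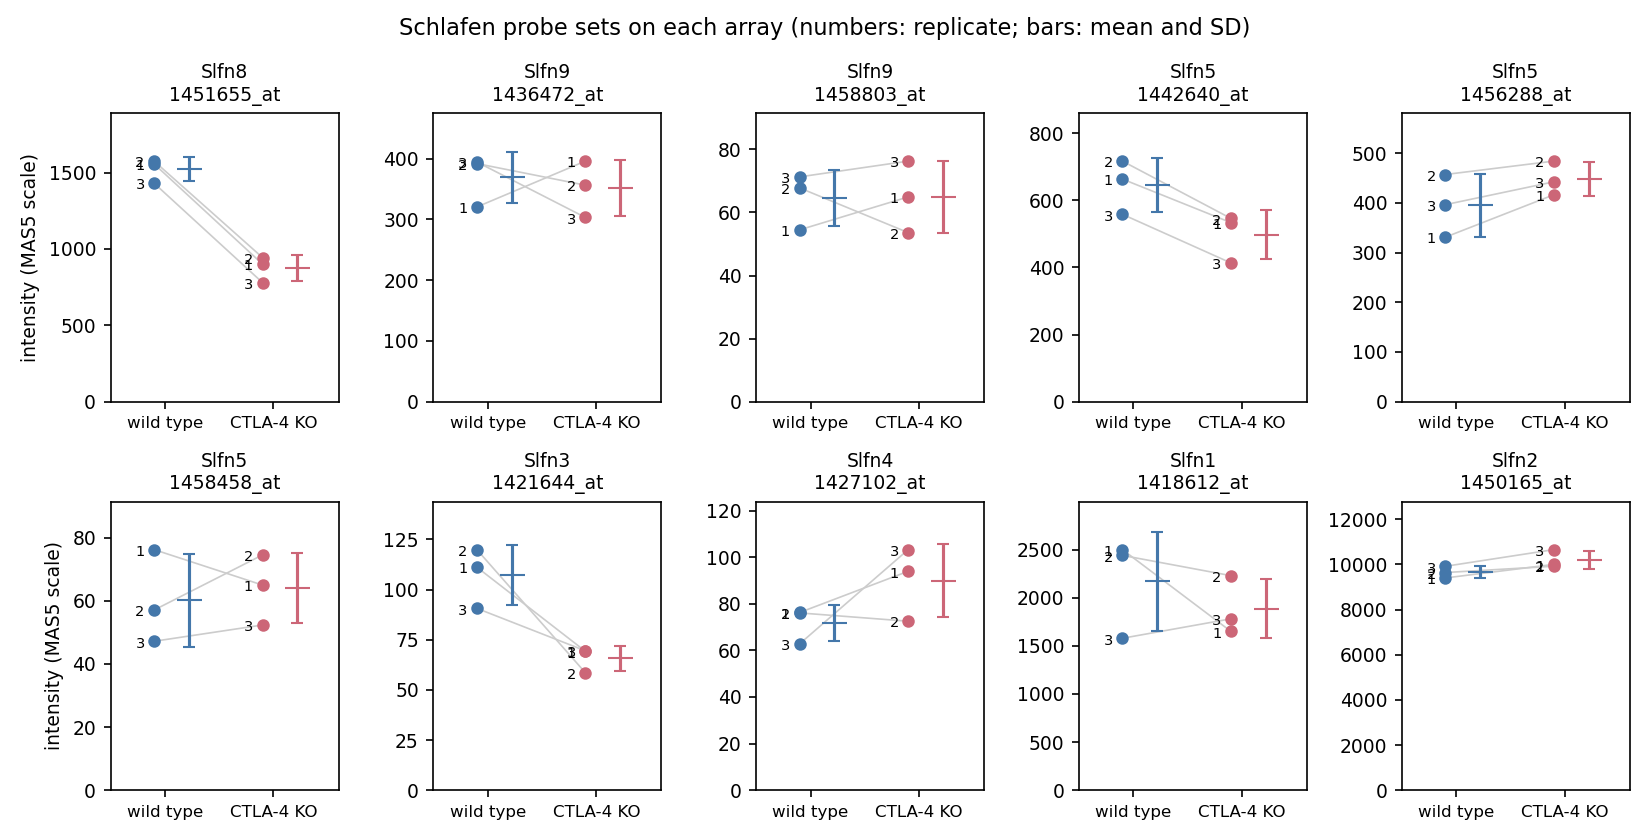
Intensity on each array (vertical axis, from 0, MAS5 scale) of the 10 Schlafen probe sets above the dimness floor, in wild type (blue) and CTLA-4 KO (red). Points carry the replicate number, grey lines join arrays of the same number, and bars are the mean and SD of 3 arrays. The Slfn8 arrays form separate groups, at 1430 to 1575 for wild type against 779 to 943 for CTLA-4 KO, while both Slfn9 probe sets overlap.

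Slfn8, a long member whose protein holds the helicase-like region, was lower on every CTLA-4 KO array than on every wild-type array. Its intensity was 1556, 1575 and 1430 on wild-type arrays 1, 2 and 3 and 900, 943 and 779 on CTLA-4 KO arrays 1, 2 and 3. The lowest wild-type array lay well above the highest CTLA-4 KO array. The means were 1520 ± 78.8 and 874 ± 85.1 (SD, n = 3 arrays), so that CTLA-4 KO stood at 57.5% of wild type. The log2 difference was −0.79 ± 0.12 (SE). Arrays of the same replicate number differed by −0.78, −0.73 and −0.86. The pair of replicate 2, with high Xist, thus lay at the small end of a narrow range. Leaving out wild-type array 2 gave a difference of −0.77 and leaving out CTLA-4 KO array 2 gave −0.85. With the Actb ratio as a term the difference was −0.80, with a larger SE of 0.17. Slfn8 is read by a single probe set, and whether this probe set also binds transcripts of Slfn9 or Slfn10-ps was not tested.

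Slfn9, the neighbour with the most similar promoter and another long member, overlapped between genotypes in both of its probe sets. The brighter of its probe sets (1436472_at) had 320, 392 and 395 across the wild-type arrays, against 396, 356 and 303 across the CTLA-4 KO arrays. The highest CTLA-4 KO array stood above every wild-type array. The log2 difference was −0.07 ± 0.16 (SE), and arrays of the same number differed by 0.29, −0.13 and −0.36, so the direction changed between pairs. The dimmer probe set (1458803_at) had 54.5, 67.8 and 71.3 across the wild-type arrays, against 64.9, 53.6 and 76.3 across the CTLA-4 KO arrays, with a log2 difference of 0.0041 ± 0.24 (SE). Slfn10-ps, the Schlafen gene between Slfn8 and Slfn2 on the chromosome, had 407, 213 and 228 across the wild-type arrays, against 300, 214 and 221 across the CTLA-4 KO arrays. It overlapped between genotypes, and in both of them array 1 was the highest.

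Slfn5, a long member whose protein is found in the nucleus, was read by 3 probe sets that disagreed in direction. Probe set 1442640_at had 663, 717 and 558 across the wild-type arrays, against 533, 546 and 413 across the CTLA-4 KO arrays, and here the genotypes did not overlap. The means were 646 ± 80.6 and 497 ± 73.2 (SD, n = 3 arrays), with a log2 difference of −0.37 ± 0.16 (SE). Its pair differences were −0.31, −0.38 and −0.42, all negative. Probe set 1456288_at had 331, 457 and 397 across the wild-type arrays, against 417, 484 and 443 across the CTLA-4 KO arrays. Its genotypes overlapped, its log2 difference was 0.18 ± 0.16 (SE), and all its pair differences were positive (0.32, 0.08 and 0.15). Without wild-type array 1, its lowest, the difference was 0.07, and without wild-type array 2 it was 0.29. The third, 1458458_at, was dim, at 76.3, 57.1 and 47.2 across the wild-type arrays, against 65.0, 74.6 and 52.4 across the CTLA-4 KO arrays. Which part of the Slfn5 transcript each reads is not stated, so no single direction can be stated for the gene.

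**Figure D2:**
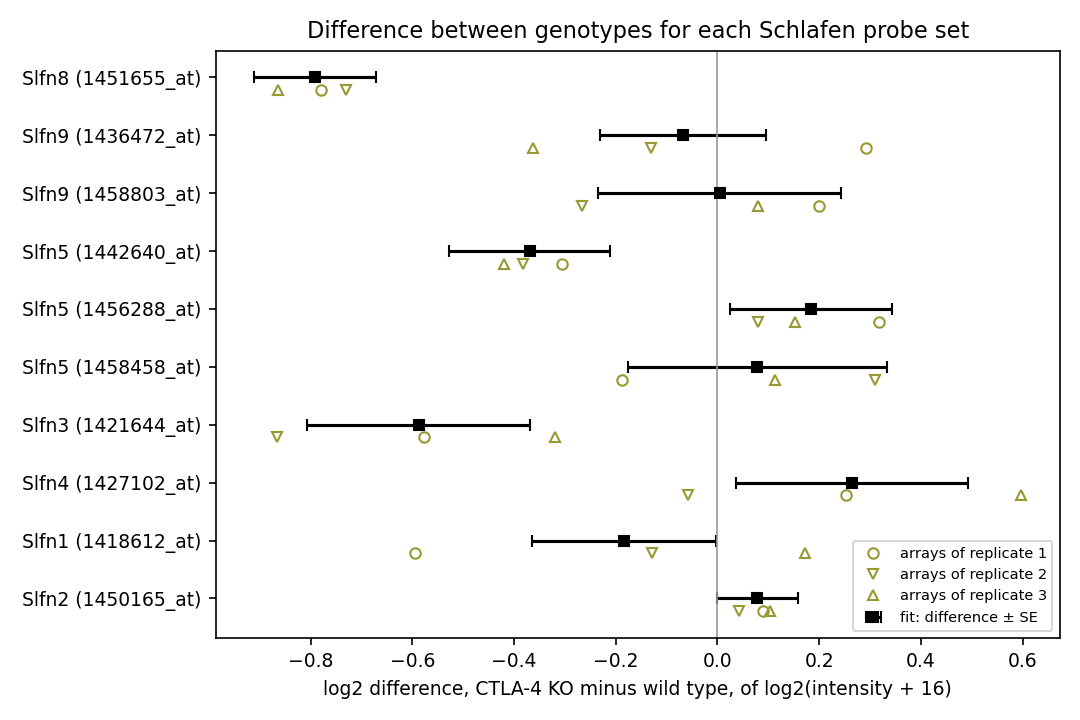
Log2 difference between genotypes (horizontal axis, CTLA-4 KO minus wild type) for each Schlafen probe set above the floor. Black squares are the fitted difference with its SE, and open symbols are the differences within arrays of replicate 1, 2 and 3. Slfn8 has the largest difference of the 10, at −0.79, with its pairs close together, while the 3 probe sets of Slfn5 fall on both sides of 0.

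Slfn3 and Slfn4, the members with the middle domain, were both dim and differed in direction. Slfn3 had 111, 120 and 90.6 across the wild-type arrays, against 69.2, 58.5 and 69.5 across the CTLA-4 KO arrays. No CTLA-4 KO array reached the lowest wild-type one, and the means were 107 ± 15.04 and 65.7 ± 6.25 (SD, n = 3 arrays). The log2 difference was −0.59 ± 0.22 (SE), and −0.37 ± 0.30 with the Actb ratio as a term. The probe set assigned to both Slfn3 and Slfn4 (1450322_s_at) had 101, 81.6 and 87.6 across the wild-type arrays, against 53.4, 49.3 and 56.1 across the CTLA-4 KO arrays. It too had no overlap, with a log2 difference of −0.62 ± 0.22 (SE). Over the 6 arrays its log2 values followed those of Slfn3 (Pearson's r = 0.91) and ran against those of Slfn4 (r = −0.54), which is a description of 6 points that share the genotype groups. Slfn8 followed Slfn3 (r = 0.90), that shared probe set (0.92) and Slfn5 1442640_at (0.88) over the same arrays, and the bright Slfn9 probe set less closely (0.31).

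Slfn4, which is best known from macrophages and other myeloid cells, had 76.2, 76.1 and 62.8 across the wild-type arrays, against 93.9, 72.5 and 103 across the CTLA-4 KO arrays. The genotypes overlapped, and the log2 difference was 0.26 ± 0.23 (SE), and 0.51 ± 0.30 with the Actb ratio as a term. The 10 macrophage and monocyte markers summed to 635 to 645 per wild-type array and 527 to 739 per CTLA-4 KO array, with 7 of 10 above the floor and none passing (limma, 1 with an unadjusted p under 0.05). That one was Cd68, with 93.3, 98.7 and 57.3 across the wild-type arrays, against 133, 125 and 138 across the CTLA-4 KO arrays, without overlap and with a log2 difference of 0.60. It was named after its values were seen. Of the 7 markers above the floor, 5 had negative and 2 had positive differences, with a median of −0.10. Itgam, Cd14 and Mrc1 were under the floor. Their part in the Slfn4 signal was not tested. In such sorted samples, fewer cells of a type and less RNA per cell cannot be told apart.

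Slfn1 and Slfn2, the short members, behaved differently in their spread. Slfn2 had 9400, 9641 and 9917 across the wild-type arrays, against 10001, 9921 and 10657 across the CTLA-4 KO arrays. The means were 9653 ± 258 and 10193 ± 404 (SD, n = 3 arrays), and the highest wild-type array almost touched the lowest CTLA-4 KO array. The log2 difference was 0.08 ± 0.08 (SE), the smallest SE of the 10 probe sets, and it was 0.01 after quantile normalization and 0.17 after median centring. Its pooled SD within genotypes was 0.05 on the log2 scale, against a median of 0.22 over all probe sets tested. That median covers all intensities above the floor, and only 2 of the 10 Schlafen probe sets lay above it. Spread was not compared among probe sets as bright as that of Slfn2.

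Slfn1 had 2499, 2439 and 1578 across the wild-type arrays, against 1649, 2229 and 1780 across the CTLA-4 KO arrays with its bright probe set (1418612_at). The low wild-type array 3 lay below all CTLA-4 KO arrays, and the ranges overlapped widely. The log2 difference was −0.18 ± 0.18 (SE), with pair differences of −0.60, −0.13 and 0.17, and the pooled SD within genotypes was 0.31, the highest among the 10. Leaving out 1 array moved it between −0.40, without wild-type array 3, and −0.07, without wild-type array 1, and with the Actb ratio as a term it was −0.02. The other Slfn1 probe set (1447614_at), at 3.43 to 21.0 over all arrays, was the 1 member below the floor and had no part in the fit.

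Among the 10 probe sets above the floor, 5 had negative and 5 had positive differences, and 4 had no overlap between genotypes, which was so for 21% of all probe sets tested. The 4 were those of Slfn8, Slfn3 and Slfn2 and 1 of Slfn5, and 3 of them were lower in CTLA-4 KO, against 11.5% of all probe sets tested. With each gene read by its brightest probe set, the 7 genes had a median log2 difference of −0.18, beside 0.002 over all 11990 genes tested. The brightest probe set of Slfn5 is 1442640_at, the lower one of its 3.

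For each member, the genes whose log2 values followed it most closely over the 6 arrays were sought among 11283 genes. Every gene, members included, was read by its brightest probe set only. Slfn8 was followed most closely by Zfp869 (Pearson's r = 0.998), Ift80, a gene of intraflagellar transport (0.992), and Ptch1, the Hedgehog receptor (0.992), and 106 genes had an r above 0.95. Slfn3 was followed by Tapbp, the peptide-loading chaperone tapasin (0.991), Ccdc58 (0.991) and the histone demethylase gene Kdm3a (0.990). The closest to Slfn5 1442640_at were Map2k1, which encodes the kinase MEK1 (0.987), Ccser2 (0.985) and Slc30a6 (0.977). That probe set had an r of −0.29 with 1456288_at and 0.32 with 1458458_at, so the likeness does not hold for Slfn5 as a gene. For Slfn2 they were Tmem33 (0.992), the histone methyltransferase gene Ezh1 (0.989) and Abi3 (0.985). The closest to Slfn1 were Myo1e (0.982), Arhgef5 (0.977) and Nsrp1 (0.971), and to Slfn4 Ppp4r2 (0.989), Arrb2 (0.978) and Nfkbia, the NF-kB inhibitor (0.977). Those to Slfn9 1436472_at were Yod1 (0.987), Ash2l (0.984) and Morn1 (0.980), and this probe set had an r of 0.07 with 1458803_at. These values describe 6 arrays that share the genotype groups, and from 6 genes (Slfn9) to 106 (Slfn8) had an r above 0.95. No member was among the 3 closest genes of another.

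The genes that flank the Schlafen cluster gave a local comparison. Of the 10 protein-coding genes on each side in the RefSeq order, 10 of 20 were above the floor, from Ccl1 to Nle1 on the side of Slfn5 and from Ap2b1 to Ccl5 on the side of Slfn3. None of the 10 passed the limma threshold, with or without the replicate block, and 0 had an unadjusted p under 0.05 without it. Their median log2 difference was 0.05, with 7 positive and 3 negative differences. The largest was that of Ccl5, which was dim and overlapped between genotypes, at −0.70 ± 0.37 (SE). Lig3, a DNA ligase gene, had 840 ± 118 and 879 ± 160 (SD, n = 3 arrays), and Ap2b1, an adaptor subunit gene, had 1054 ± 192 and 1138 ± 67.4.

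Related lists were then read in the same fit, over all genes tested of which 1.19% were higher and 0.5% lower, or 5.48% and 3.44% with the replicate block. Signalling comes before the targets. Among the interferon receptors and their signalling genes, 0 of 15 passed (limma, 2 with an unadjusted p under 0.05), with a median log2 difference of −0.11. The brightest were the kinase genes Jak1, with 8060 ± 1141 and 6868 ± 281, and Jak2, with 7468 ± 623 and 7551 ± 191 (SD, n = 3 arrays). With the replicate block 1 of the 15 was lower.

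Of 28 interferon-stimulated targets, 2 passed the limma threshold as lower in CTLA-4 KO and none as higher. There were 19 negative and 9 positive differences, with a median of −0.17. Ddx60, a helicase gene of the antiviral response, had 471, 545 and 539 across the wild-type arrays, against 331, 296 and 258 across the CTLA-4 KO arrays, for a log2 difference of −0.78 ± 0.15 (SE, limma adjusted p = 0.0402). A second Ddx60 probe set gave −0.67 and did not pass (limma adjusted p = 0.131). Ifih1, the RNA sensor MDA5, had 6534, 6086 and 5190 across the wild-type arrays, against 4432, 3959 and 3407 across the CTLA-4 KO arrays, for a log2 difference of −0.59 ± 0.12 (limma adjusted p = 0.0496). In both genes the genotypes did not overlap. With the replicate block 6 targets were lower and 1 higher. Among genes with the response element core in a RefSeq promoter, 354 were tested, and 4 (1.13%) were higher and 4 (1.13%) lower, with a median of 0.01. Among all 9707 tested genes with a RefSeq promoter 121 (1.25%) were higher and 55 (0.567%) lower. Slfn8 is 1 of those 4 lower genes.

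Genes of T cell quiescence and the naive state were listed because Slfn2 acts there. Of 19, 2 passed as lower and none as higher, with 11 negative and 8 positive differences and a median log2 difference of −0.09. Bach2, a repressor that restrains effector differentiation, had 3791, 2907 and 2512 across the wild-type arrays, against 1579, 1287 and 1171 across the CTLA-4 KO arrays (log2 difference −1.17, limma adjusted p = 0.0112). Its other probe sets gave −1.43, which passed, and −0.56, which did not. Il7r, the interleukin-7 receptor gene, had 2179, 2725 and 4055 across the wild-type arrays, against 1520, 1352 and 1424 across the CTLA-4 KO arrays (log2 difference −1.01, limma adjusted p = 0.0352), and a second probe set gave −1.05 and did not pass. Both lacked overlap, and wild-type array 3 stood high in Il7r. With the replicate block 4 were lower and 1 was higher.

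Genes of cell cycle entry were listed because Slfn1 was reported to act on cyclin D1. Of 15, 1 passed as higher and 0 as lower, with 11 positive and 4 negative differences and a median log2 difference of 0.17. Cdk6, the kinase partner of the D cyclins, had 2552, 3579 and 2329 across the wild-type arrays, against 4879, 4867 and 4880 across the CTLA-4 KO arrays, for a log2 difference of 0.81 ± 0.14 (SE, limma adjusted p = 0.0279). Its values did not overlap, and the CTLA-4 KO arrays were nearly equal. A second probe set above the floor also passed, at 0.54. With the replicate block 5 were higher and 1 was lower.

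The list of transfer RNA cleavage and translation control follows from the known role of Slfn2. Of 16, 1 passed as higher and 0 as lower, with 9 positive and 7 negative differences and a median log2 difference of 0.003. The one that passed was Ang, which encodes angiogenin, the ribonuclease that cleaves transfer RNAs under stress. It had 164, 243 and 186 across the wild-type arrays, against 541, 447 and 540 across the CTLA-4 KO arrays, without overlap, and a log2 difference of 1.31 ± 0.18 (SE, limma adjusted p = 0.0107). Its probe set carries the suffix of sets that can bind several transcripts, and angiogenin has close paralogs, so the gene assignment is uncertain. The other Ang probe set above the floor had 57.0 ± 18.5 and 141 ± 19.3 (SD, n = 3 arrays, log2 difference 1.13, limma adjusted p = 0.0581). Rnh1, which encodes the inhibitor of angiogenin, had 2880 ± 424 and 3354 ± 448 (limma adjusted p = 0.488). With the replicate block 2 of the list were higher. Rnh1 falls outside the rule for named genes and was chosen after its values were seen.

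Across these 5 lists and the other Schlafen-named genes, 6 genes passed, 2 higher and 4 lower. Leaving out wild-type array 1, 2 or 3 left 4, 3 or 2 genes, and leaving out CTLA-4 KO array 1, 2 or 3 left 3, 1 or 2. With the Actb ratio as a term, which differed between the genotypes as given above, 0 passed, and without the intensity trend 0 passed (limma, 22 and 26 with an unadjusted p under 0.05). With the Gapdh ratio as a term, 7 passed.

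**Figure D3:**
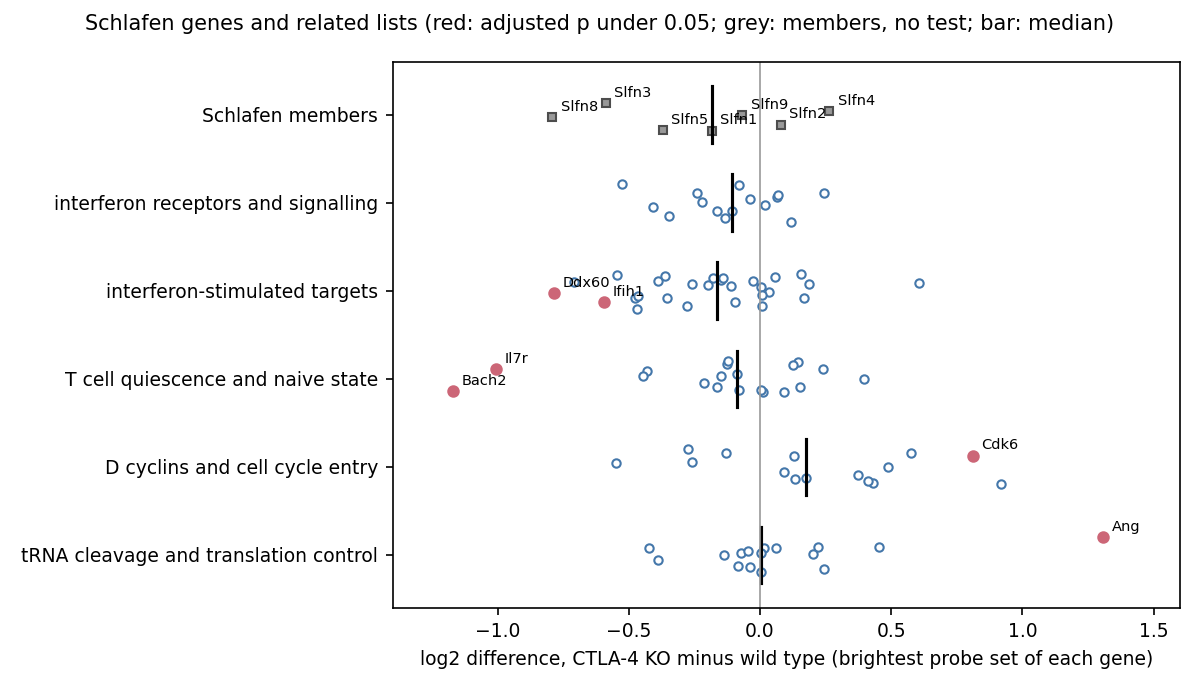
Log2 difference between genotypes (horizontal axis, CTLA-4 KO minus wild type) of the genes above the floor in the Schlafen family and in the related lists, each gene by its brightest probe set. Red points passed an adjusted p of 0.05 in the limma fit over all probe sets and carry their name, grey squares are the Schlafen genes, shown without a call, and black bars are list medians. Ddx60, Ifih1, Bach2 and Il7r lie on the lower side and Cdk6 and Ang on the higher side. The vertical scatter within a list only separates points.

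**Figure D4:**
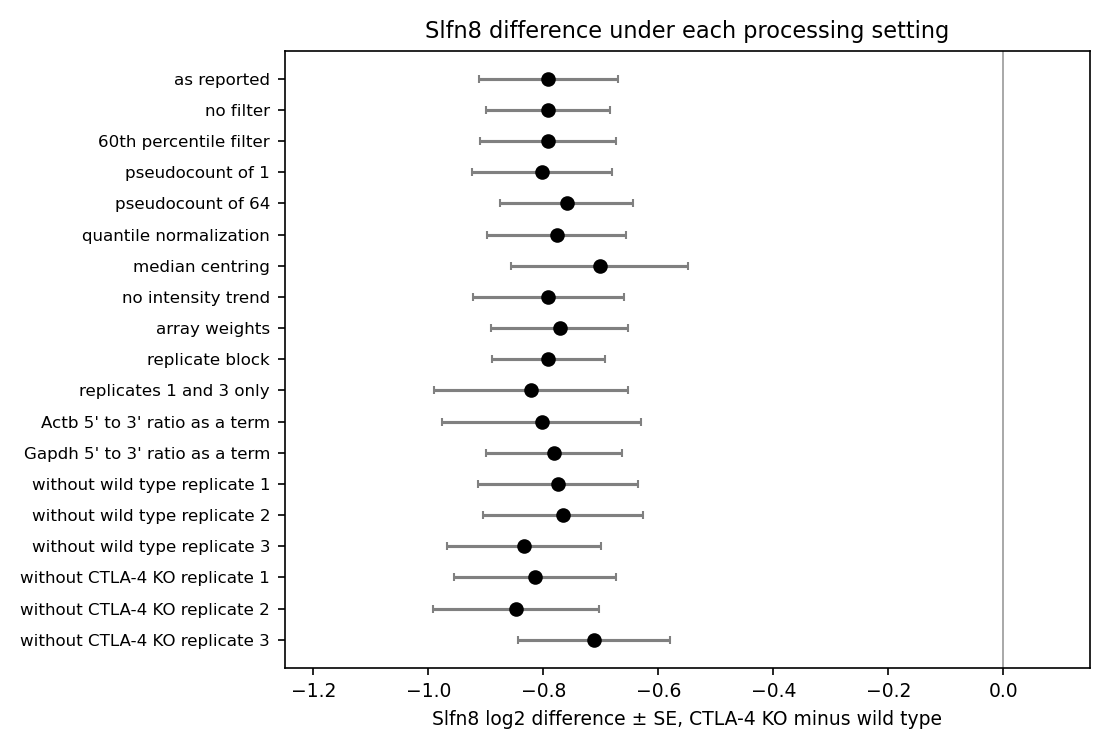
Slfn8 log2 difference with its SE (horizontal axis, CTLA-4 KO minus wild type) as reported and under each of the 18 alternatives listed on the vertical axis. The difference lies between −0.85 and −0.70 under all 18. The filter, intensity trend and replicate block settings cannot move it and change only its SE.

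The size of the Slfn8 difference moved little with the processing, as the plot of all settings shows. It lay between −0.85 and −0.70 under the 18 alternatives, which all draw on the same 6 arrays or on fewer of them. The other filters, the fit without the intensity trend and the replicate block cannot move any probe set's difference. Only the SE and the call can change there, so an unchanged size or direction in these settings shows nothing. The direction was also the same in all 18 alternatives for Slfn1 (bright probe set), Slfn2, Slfn5 1442640_at and Slfn5 1456288_at, and in the 17 that could be run for Slfn3 and Slfn4. Their sizes moved more, from −0.40 to −0.02 for Slfn1, 0.01 to 0.17 for Slfn2, −0.47 to −0.25 and 0.07 to 0.29 for these Slfn5 probe sets, −0.69 to −0.37 for Slfn3 and 0.17 to 0.51 for Slfn4. It turned for Slfn9 1436472_at in 2 of 18, for Slfn9 1458803_at in 5 of 17 and for Slfn5 1458458_at in 3 of 17.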

How the data were processed

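Gene expression was measured on Affymetrix arrays. The authors deposited 1 table of linear intensity values, 45101 probe sets on 6 arrays. Partek and MAS5 are named, per the submitters' processing notes, without versions. In the deposited intensity values every array has the same mean after the top and bottom 2% are trimmed. MAS5 leaves dim values noisy, and log2(intensity + 16) understates changes of dim genes.

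Groups came from sample titles. After 64 control probe sets were left out, the 27022 probe sets at or above the 40th percentile of mean log2 values (intensity 35.4) entered a linear model (lmFit, then eBayes with an intensity trend, in limma 3.58.1 under R 4.3.3, 4 residual degrees of freedom) with no block, and Benjamini-Hochberg adjustment over all of them at 0.05. The fit was tested on simulated data. With 3 arrays per genotype, precision is limited by their number.

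Replicate numbers in the titles were taken to pair the arrays for the pair differences and the replicate block. Same-numbered arrays deviated together (r = 0.371, 0.24 and 0.254), and arrays of unlike number were not compared. The fit as reported did not use the pairs.

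The annotation gave 1 symbol for 34958 probe sets, several for 932 and no symbol for 9211. Through gene IDs, 34754 of these matched a RefSeq gene (GRCm38.p6), whose symbol was used. The array files name no build. Promoter sequences are RefSeq's, 1 or more per gene, for all 7 members, and were aligned with Biopython 1.88. Each listed gene was read by its brightest probe set.

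All members were described. From each related list, up to 3 genes past the threshold without overlap were named, by smallest p, or else the 2 brightest. Lig3, Ap2b1 and Ccl5 were picked from the neighbours with their values in view. The members, lists and alternatives were chosen with earlier results of these data known. Slfn14 was not analysed here.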

Additional observations from a re-analysis of the deposited data

How the results depend on the processing

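The values for Schlafen genes are a description, since this contrast was known when they were chosen. Slfn8 was lower in CTLA-4 KO under all 18 alternatives, of which the filter, trend and block settings cannot move the difference. It no longer passed the limma threshold when arrays were centred on their median (−0.70), without the intensity trend (−0.79), with replicates 1 and 3 only (−0.82) or with the Actb ratio as a term (−0.80), and without 1 array it lay between −0.85 and −0.71. In these 4 settings, and at a threshold of 0.01, 0 Schlafen probe sets passed. Of the 10, 1 to 3 had an unadjusted p under 0.05 (limma), where 2641 to 4216 of all 27022 probe sets did. Without 1 array, 0 or 1 Schlafen probe sets passed. With the replicate block Slfn8 still passed (−0.79, SE 0.098), and no other member's call changed. The 6 genes of the related lists became 2 with no dimness filter, 21 with the replicate block, 2 with replicates 1 and 3 only, 13 with probe sets averaged per gene, 0 without the trend and 0 with the Actb term (limma, where 26 and 22 had an unadjusted p under 0.05), and 1 to 4 without 1 array. Over all probe sets, the 339 that passed became 111 with no filter, 20 without the trend, 521 with array weights, 2341 with the replicate block, 46 with replicates 1 and 3 only, 21 with the Actb term, 832 and 45 at thresholds of 0.1 and 0.01, and 62 to 217 without 1 array. The share of higher calls was 62.5%, and 81.5% under median centring, 44.6% with the replicate block and 42.9% with the Actb term, so that lower calls outnumbered higher ones in the last 2 of these. With the Gapdh ratio as a term, 7 genes of the related lists and 396 of all probe sets passed. The cause of these changes between settings was not tested. Slfn3, Slfn4, 1 probe set each of Slfn5 and Slfn9 and the dim Slfn1 probe set lie near the floor, where signal over background limits what can be read.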
